A study of Drosophila melanogaster with 2 samples.

Results

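The 62 Drosophila genes looked up encode Mediator subunits, TATA-binding-protein-associated factors (TAFs), the factors TFIIA, TFIIB, TFIIE, TFIIF and TFIIS, and RNA polymerase II subunits with the associated factor Polr2M. Of these genes, 16 (25.8%) had a peak of gooseberry (gsb) binding with its summit within 1 kb of a start site. Over all protein-coding genes the share was 13.8%. The 16 were MED4, MED6, MED7, MED16, MED17, MED27, MED30, MED31, Polr2B, Polr2F, Polr2H, Taf2, Taf4, Taf5, TfIIA-L and TfIIB. Every summit of these strongest peaks lay upstream of the nearest start site of its gene, beside 77.8% over all genes with a peak. At Taf4 and TfIIA-L the summit also lay in an intron of the gene itself. Of the 16 summits, 15 lay within 200 bp of the start site (93.8%), beside 52.3% over all genes with a peak. The 62 genes were chosen by symbol among the 13945 protein-coding genes on the 6 main chromosome arms: those starting with MED and a digit, with Taf and a digit, with TfII, or with Polr2. They comprise 25 Mediator genes, 13 RNA polymerase II genes, 15 TAF genes and 9 TFII genes.

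Binding was measured by chromatin immunoprecipitation and sequencing in whole embryos aged 0 to 18 h, from a strain called gsb-GFP with an insertion targeting gsb, which makes the gsb protein fused to eGFP. Chromatin was sonicated to 200 to 800 bp and precipitated with an antibody to GFP, while the antibody tag of the labels reads gsb. The labels give 1 group of 2 biological replicates and no second condition, so shares are set beside those over all protein-coding genes, and no test between groups was possible. The labels also name a possible control, which was not analysed here. Whole embryos of this age span mix all tissues and many stages, so a peak belongs to no particular cell type.

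Gooseberry is a transcription factor of the Pax family, with a paired domain and a homeodomain, known for its part in segment patterning of the embryo. RNA polymerase II cannot find promoters alone. TFIID, made of the TATA-binding protein and the TAFs, recognises the promoter, TFIIA and TFIIB join it and place the polymerase, and Mediator carries signals from bound transcription factors to this assembly. Genes of this machinery are used in most cells, and the labels name none of them as a gooseberry target.

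The deposited files are lists of regions, not reads, so the depth of the libraries is unknown. The combined list holds 2888 peaks that passed a threshold on the IDR (the irreproducible discovery rate, low where a region ranks alike in separate sets of reads), and it was drawn from 141664 ranked candidate regions. The replicate 1 and replicate 2 lists hold 1877 and 1704 peaks. Each region carries the peak caller's signal, whose scale the sources used here do not give, and a score of at most 1000, with 830 the lowest listed. The median signal in the combined list was 112.4. In that list 117 peaks had a signal under 30, and 116 of these overlapped a stronger listed peak.

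The members' share with a peak in the combined list was 25.8%, with a 95% exact (Clopper-Pearson) interval of 15.5 to 38.5%, beside 13.8% of all protein-coding genes (1931 of 13945). In the replicate 1 list 13 members had a peak (21%, interval 11.7 to 33.2%), beside 9.89% of all genes. In the replicate 2 list it was 8 members (12.9%, interval 5.74 to 23.9%), beside 9.46% of all genes, so there the background lies inside the members' interval. In the conservative list of both replicates, the shorter joint list, 13 members had a peak (21%, interval 11.7 to 33.2%), beside 13.2% of all genes, which again lies inside the interval. The intervals cover counting error only, and the genes are not replicates of a condition.

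The share with a peak was also counted by gene spacing. Another protein-coding gene's start site lay within 1 kb of a start site of 44 of the 62 members (71%), against 5985 of the 13945 genes (42.9%). Among genes with such a neighbour, 14 of 44 members had a peak (31.8%, interval 18.6 to 47.6%), beside 1190 of 5985 genes (19.9%). Among genes with none, it was 2 of 18 members (11.1%, interval 1.38 to 34.7%), beside 741 of 7960 genes (9.31%). In each class the value for all genes lies inside the members' interval.

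**Figure D1:**
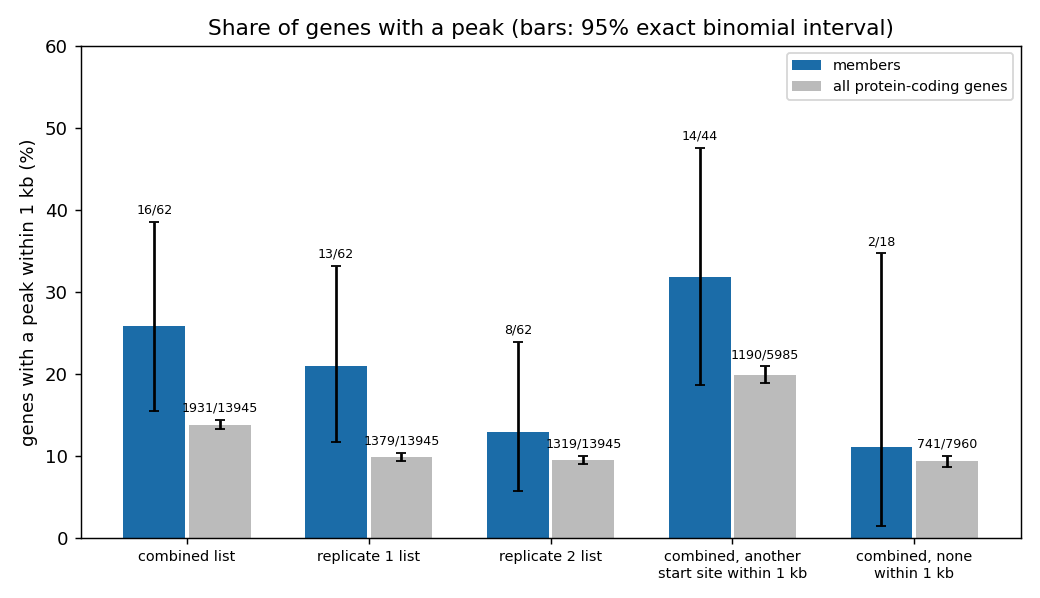
Share of genes (%, vertical axis) with a peak summit within 1 kb of a start site, for the 62 members (blue) and all protein-coding genes (grey), with 95% exact binomial intervals as bars and counts above them. The members stand at 25.8%, 21% and 12.9% in the combined, replicate 1 and replicate 2 lists, and of the intervals drawn, those of the replicate 2 list and of both classes of gene spacing take in the value for all genes.

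The summits of the strongest peaks fall in short stretches in front of the start site, mostly between a pair of genes that point away from each other, and 6 of these stretches are shown with a seventh at TfIIA-S. MED30, TfIIA-L, Polr2B and MED27 are the strongest whose sequence is printed, MED17 holds 3 of the marked words, Polr2F has its summit at the start site itself, and TfIIA-S holds the paired-domain word. Positions are those of dm6 (Release 6), and the sequence is that of the RefSeq copy of this release, read 5′ to 3′ in the direction of the named gene and cut to the bases round the summit that lie in no exon. The stretches are chr3L:654195-654345 on the minus strand for MED30, chr3R:27253183-27253328 on the plus strand for TfIIA-L, chr3R:14125635-14125785 on the plus strand for Polr2B and chr3R:5654910-5655060 on the plus strand for MED27. They are chr3R:18188916-18189066 on the plus strand for MED17, chr3R:5371745-5371794 on the plus strand for Polr2F and chr3R:23891061-23891167 on the minus strand for TfIIA-S. Capitals mark exact words on either strand, at any distance from a start site. They are the replication-element word TATCGATA, the homeodomain word TAATTA, the TATA-box word TATAAA, the hexamer ACAGTG and the paired-domain word GTCACGC. Other words are not marked.
MED30: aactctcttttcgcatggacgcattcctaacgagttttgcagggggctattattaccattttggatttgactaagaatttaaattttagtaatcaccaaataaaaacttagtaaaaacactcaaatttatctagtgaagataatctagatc
TfIIA-L: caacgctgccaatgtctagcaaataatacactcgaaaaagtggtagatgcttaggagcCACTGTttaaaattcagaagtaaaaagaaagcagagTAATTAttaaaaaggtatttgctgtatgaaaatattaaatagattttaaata
Polr2B: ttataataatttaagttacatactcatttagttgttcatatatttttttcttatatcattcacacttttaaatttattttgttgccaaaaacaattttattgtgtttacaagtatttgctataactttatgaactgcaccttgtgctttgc
MED27: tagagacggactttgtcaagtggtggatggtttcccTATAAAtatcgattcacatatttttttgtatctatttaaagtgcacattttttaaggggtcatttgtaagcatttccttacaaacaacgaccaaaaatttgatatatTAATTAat
MED17: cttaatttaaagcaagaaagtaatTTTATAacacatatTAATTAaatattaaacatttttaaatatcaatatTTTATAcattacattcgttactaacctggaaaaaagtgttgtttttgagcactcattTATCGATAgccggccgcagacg
Polr2F: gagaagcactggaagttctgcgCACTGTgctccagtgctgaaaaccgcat
TfIIA-S: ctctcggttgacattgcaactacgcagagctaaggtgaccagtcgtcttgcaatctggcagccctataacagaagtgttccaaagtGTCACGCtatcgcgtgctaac

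Base composition differed among the members. Within 100 bp of the summit, the 16 member peaks had a GC content of 33.1% ± 9.42 (SD, n = 16 peaks), with a range of 19.4 to 58.7%. The 1607 promoter peaks of the combined list, those within 1 kb of the start site of any protein-coding gene, had 39.3% ± 9.47. Of the stretches shown, Polr2B had 23.2% GC, while Polr2F had 54% and TfIIA-S 50.5%.

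Mediator had the most members with a peak, 8 of 25 (32%, interval 14.9 to 53.5%), beside 13.8% of all genes. It had 7 in replicate 1's own list (28%, interval 12.1 to 49.4%), beside 9.89%, and 4 in that of replicate 2 (16%, interval 4.54 to 36.1%), beside 9.46%. In the conservative list it had 5 (20%, interval 6.83 to 40.7%), beside 13.2%. The value for all genes lies inside the Mediator interval in the replicate 2 and conservative lists. Over all genes with another gene's start site within 1 kb, the share was 19.9% in the combined list and 14.7% in the replicate 1 list. Both values lie inside the Mediator intervals, and the Mediator counts were not split by gene spacing. The 8 were spread over its structural modules: 3 of 9 head genes, 3 of 9 middle genes and 2 of 6 tail genes. The scaffold subunit MED14 had none, and its strongest candidate region had a signal of 48.8. The strongest candidate region within 1 kb had a median signal of 63.6 over the 21 Mediator genes that had one, beside 46 over the 12529 protein-coding genes that had one. Over the 5518 of these genes with another gene's start site within 1 kb, it was 50.9.

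MED30, a head subunit, had the strongest listed peak of any member, with a signal of 291.8 from both replicates together, 132 in replicate 1 and 161.1 in replicate 2. It passed in each replicate's own list. Its peak, at chr3L:654191-654350, ranked 295 in the combined list, and its summit lay 181 bp upstream of the MED30 start site and 93 bp from that of Rev1, a polymerase of DNA damage tolerance on the opposite strand.

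MED27, of the tail, had a signal of 202.3, with 88.2 in replicate 1 and 103.7 in replicate 2, and passed in both lists. Its peak at chr3R:5654803-5655166 had its summit 154 bp upstream of MED27 and 124 bp from the start site of elm, which again was the nearer gene. MED4, of the middle module, had 113.1, with 50 in replicate 1 and 65.9 in replicate 2. It also passed in both lists but stands alone, since the next start site, that of the anaphase-promoting-complex gene Cdc27, was 1313 bp from the summit at chr3L:7250471-7250834. MED17, a head subunit that contacts the polymerase, had 108, with 87.2 in replicate 1 and 48.8 in replicate 2. Its peak at chr3R:18188809-18189172 passed in both lists, and MED17 was the nearest gene, 81 bp away.

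The other Mediator peaks were held less firmly by the replicates. MED31, of the middle module, had a signal of 106.9, with 77.5 in replicate 1 and 29.4 in replicate 2, where the score was 111, and it passed in replicate 1 only. The summit at chr3R:4641623-4641986 lay 158 bp upstream of MED31 but inside the 5' UTR of CG9775, whose start site was 33 bp away. MED16, of the tail, had 90, with 55.7 in replicate 1 and 30.9 in replicate 2, and also passed in replicate 1 only. Its summit lay 112 bp upstream of MED16 and 147 bp from CG11170 on the opposite strand. An overlapping second listed region with a signal of 4.44 lay in the coding exon of MED16, 109 bp downstream of the start site.

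MED6, a head subunit with 5 annotated start sites, had 87.9, with 34.4 in replicate 1 and 42.8 in replicate 2. Its summit at chr3R:9768877-9769240 lay 75 bp upstream of a MED6 start site and in a coding exon of the actin-modifying gene Naa80. No peak of either replicate's list held this summit, although the replicate 1 list has another peak near a MED6 start site. MED7, of the middle module, had the weakest listed peak, 80.2, with 44.9 in replicate 1 and 45.9 in replicate 2. Its summit at chr3R:10760885-10761248 was 35 bp from MED7 and 243 bp from Cap-H2, a condensin subunit, and passed in neither replicate's own list. MED6, MED16 and MED31 were the members missing from the conservative list.

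Of the 13 RNA polymerase II genes, 3 had a peak (23.1%, interval 5.04 to 53.8%), and the 13.8% of all genes lies inside this interval. Polr2B, a large subunit that forms the active centre together with Polr2A, had a signal of 229.3, with 122.3 in replicate 1 and 114.5 in replicate 2. Its peak at chr3R:14125528-14125891 passed in both lists and ranked 449, with the summit 81 bp upstream of Polr2B and 162 bp from the divergent gene 140up. Polr2A, the largest subunit, had no listed peak: its strongest candidate region had 31.9, with 20.8 in replicate 1 and 16.8 in replicate 2, 213 bp upstream of the start site. Among the 7 subunits found in RNA polymerase II only, Polr2B was the sole gene with a peak, and the strongest candidate regions of the other 6 had signals of 31.9 to 55.3.

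The other 2 belong to the 5 subunits that polymerases I, II and III share. Polr2H had 168.3, but the replicates differed, with 113.2 in replicate 1 and 51.8 in replicate 2, where the score of 658 missed the threshold. Its summit at chr3L:21728602-21728965 lay 148 bp upstream of Polr2H and in the 5' UTR of CG11247, 22 bp from that gene's start. Polr2F had 84.1, with 60.3 in replicate 1 and 34.2 in replicate 2, and passed in replicate 1 only. At chr3R:5371612-5371975 its summit was 1 bp from the Polr2F start site, closer than at any other member, and the next gene, CG34277, was 1490 bp away. The shared subunits Polr2E, Polr2L and Polr2K had candidate regions of 55, 47.9 and 5.93, and 5.93 was the weakest of any member. Polr2M, whose mammalian counterpart is a polymerase-associated factor known as Gdown1, had 54.9.

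Of the 15 TAF genes, 3 had a peak (20%, interval 4.33 to 48.1%), which takes in the 13.8% of all genes. Taf5, a scaffold of the TFIID core, had a signal of 222.6, with 98.5 in replicate 1 and 120.9 in replicate 2, and passed in both lists. The summit at chr2R:10879615-10879978 lay 124 bp upstream of Taf5 and 177 bp from Pex6, a peroxisome gene on the opposite strand. Taf2, which contacts the initiator of promoters, had 137.2, with 67.7 in replicate 1 and 72.1 in replicate 2, and passed in both. Its summit at chr3L:9888686-9889049 lay 185 bp upstream of Taf2 and in the 5' UTR of the calpain gene CalpB, 106 bp from its start.

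Taf4, another core subunit, had 84.7, with 54.1 in replicate 1 and 34.4 in replicate 2, and a score of 890, close to the lowest listed. It passed in neither replicate's own list. The summit at chr3L:16113435-16113798 was 173 bp upstream of 1 of the 3 Taf4 start sites and in an intron of a longer Taf4 transcript. Below the threshold, Taf1, the largest TFIID subunit, had a region of 66.8 with a score of 647, 44.3 in replicate 1 and 20.8 in replicate 2, and its summit was 161 bp downstream of the start site. Taf8 had 65.8 with a score of 618, 40.9 in replicate 1 and 25.6 in replicate 2, only 21 bp downstream of its start site. Taf10 and Taf10b, whose start sites are 45 bp apart, share 1 candidate region of 31.8 and so are not separate observations.

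Of the 9 TFII genes, 2 had a peak (22.2%, interval 2.81 to 60%), again with the 13.8% of all genes inside the interval. TfIIA-L, which encodes the large subunit of TFIIA, had a signal of 230.6, with 114.7 in replicate 1 and 114.5 in replicate 2, and passed in both lists. Its summit at chr3R:27253071-27253434 lay 177 bp upstream of 1 of the 2 TfIIA-L start sites, within an intron of the transcript from the other, and 71 bp from pll, the kinase of the Toll pathway, on the opposite strand. TfIIB had 90.7 with a score of 912. Replicate 1 gave 46.6 with a score of only 37, and replicate 2 gave 45.6 with a score of 794. TfIIB passed in neither replicate's list. Its summit at chr2L:10430781-10431144 was the farthest of any member peak, 375 bp upstream of TfIIB and 45 bp from Bug22, a gene of cilia.

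**Figure D2:**
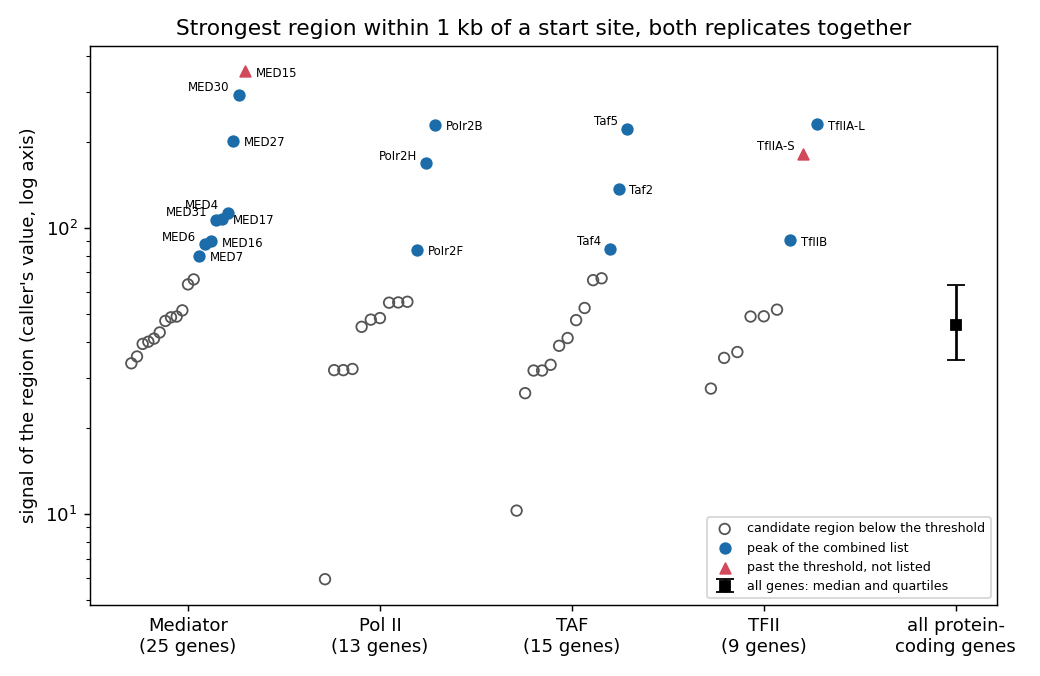
Signal of the strongest region within 1 kb of a start site (the caller's value, both replicates together, log axis) for each member with such a region, by family, with the median and quartiles of all protein-coding genes at the right. Listed peaks (filled circles) run from 80.2 at MED7 to 291.8 at MED30, and the triangles for MED15 and TfIIA-S stand among the strongest although neither is listed.

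Among the 16 members with a peak, the strongest peak had a median signal of 110.6, against 133.9 over the 1931 genes with a peak. The members thus reached neither the upper nor the lower end of the list: MED30 stood at percentile 84.2 of those genes and MED7 at percentile 9.63. Over all 62 members, with or without a peak, 57 had a candidate region within 1 kb, and the strongest had a median of 49.2 (quartiles 38.8 to 87.9). Over all protein-coding genes 12529 had one, with a median of 46 (quartiles 34.7 to 63.2). The middle of the distribution was thus close to that of all genes, and the upper quartile was higher. In replicate 1 the medians were 27.2 for the members and 24.9 for all genes, and in replicate 2 they were 30.3 and 25.9.

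MED15 and TfIIA-S carried strong regions in the ranked candidates that the combined list does not contain. MED15, a tail subunit that many activators bind in yeast, had a region of 353.3 with a score of 1000, stronger than any listed member peak. Replicate 1 gave 181.1 and replicate 2 gave 171.3, each with a score of 1000. The region at chr2L:472407-472578 lay 557 bp upstream of MED15 and 256 bp from the nearer gene CG4297, and would have ranked 206. TfIIA-S, the small TFIIA subunit and partner of TfIIA-L, had 181.6, with 95 in replicate 1 and 82.7 in replicate 2 and scores of 1000. Its summit at chr3R:23890910-23891273 lay 32 bp upstream of TfIIA-S, which was the nearest gene, and would have ranked 687.

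Both were absent from each replicate's thresholded list too. They belong to 87 of the 2975 candidate regions (2.92%) that reach the lowest listed score without being listed. The deposited descriptions name 1 more source file for the thresholded lists than for the ranked lists, and its part in these absences was not tested. With the 87 regions restored, 18 of 62 members (29%) had a peak, beside 14.1% of all genes.

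The member peaks sat close to the nearest start site of the gene and in front of it. The summit was within 200 bp of a start site at 15 of 16 members (93.8%, interval 69.8 to 99.8%), against 1009 of 1931 genes (52.3%). The distance had a median of 137 bp among the members, range 1 to 375 bp, and of 185 bp among all genes with a peak, range 0 to 996 bp. The summit lay upstream of the nearest start site of the gene at 16 of 16 members (interval 79.4 to 100%), against 1502 of 1931 genes (77.8%). At Taf4 and TfIIA-L, which have several start sites, it was also downstream of another start site of the same gene, in an intron. These comparisons rest on 16 genes and were made without a test. The share within 200 bp was not counted separately for genes with an opposite-strand neighbour, which were more frequent among the members.

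An opposite-strand gene started within 1 kb of the summit at 13 of the 16 members (81.2%), against 987 of the 1931 genes with a peak (51.1%). Among those 987 genes the summit was upstream at 837 (84.8%). The member's own start site was the nearest at 9 of the 16 (56.2%), against 1375 of 1931 (71.2%). At the other 7 members, MED27, MED30, MED31, Polr2H, Taf2, TfIIA-L and TfIIB, the divergent neighbour was nearer, so these peaks can be given to either gene. In 10 of the 16 the summit was intergenic, in 3 it lay in a 5' UTR of the neighbour, in 2 in an intron and in 1 in a coding exon.

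**Figure D3:**
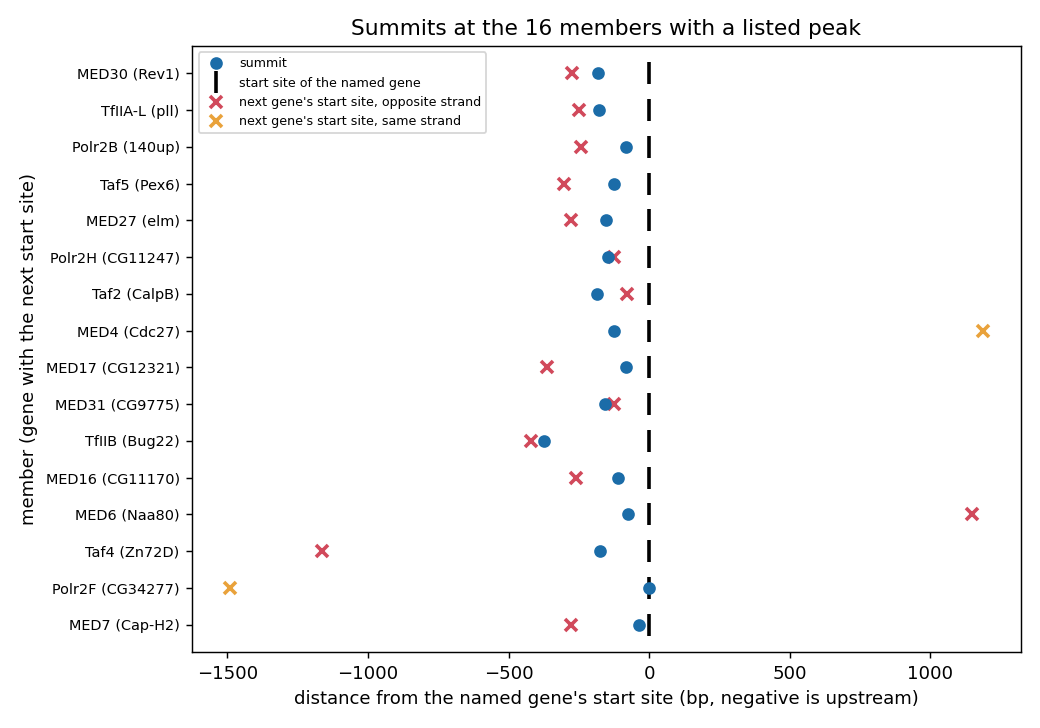
Distance in bp from the nearest start site of each of the 16 members (dashed line at 0, negative is upstream) to its strongest summit (circles). Crosses, coloured by strand, mark the next gene's start site, and members are ordered by signal from top to bottom. All 16 circles are at or left of the line, and 15 lie within 200 bp.

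Of the 16 member peaks, 8 passed in both replicates' own lists (50%), 4 in replicate 1 only (25%), 0 in replicate 2 only (interval 0 to 20.6%) and 4 in neither (25%). The 8 were MED4, MED17, MED27, MED30, Polr2B, Taf2, Taf5 and TfIIA-L. Over all 1607 promoter peaks, 769 passed in both (47.9%), 226 in replicate 1 only (14.1%), 194 in replicate 2 only (12.1%) and 418 in neither (26%). Signals come from separate lists of unknown scale. Replicate 1 gave the higher value at 9 of the 16 members, and the ratio of replicate 1 to replicate 2 had a median of 1.01, from 0.76 at MED4 to 2.64 at MED31.

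The rank order of the members was broadly shared by the replicates, with a Spearman rho of 0.63 over the 49 members with a region in both and of 0.67 over the 16 with a peak. Both values describe members of the same libraries, and the regions were selected on the joint signal. MED30, Taf5, Polr2B and TfIIA-L were high in each replicate. MED31, Polr2H and MED17 were high in replicate 1 and lower in replicate 2.

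**Figure D4:**
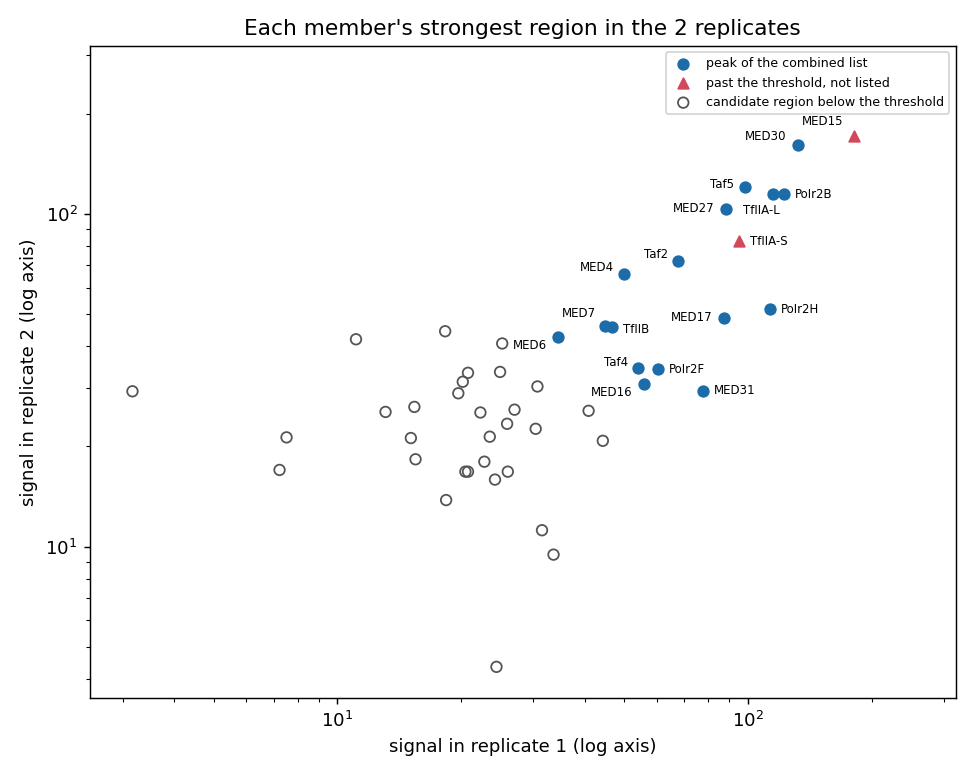
Signal of each member's strongest region in replicate 1 (horizontal, log axis) and replicate 2 (vertical, log axis), for the 49 members with a region in both. The listed peaks and the unlisted MED15 and TfIIA-S fill the upper right, with MED31, at 77.5 and 29.4, farthest from equal values among the listed peaks.

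The 41 members with a candidate region but no listed peak had a median signal of 45.2. Over all protein-coding genes with a candidate region, listed peaks included, the median was 46. Of the 41 strongest regions, 6 (14.6%) were within 200 bp of a start site, and the median distance was 519 bp. Matching distances for all genes without a listed peak are not given here. Beside MED15, TfIIA-S, Taf1 and Taf8, the 5 strongest include the tail subunit MED23, with 66.2, a score of 555, 25.2 in replicate 1 and 40.8 in replicate 2, and its summit lay 843 bp downstream of the start site. The remaining TFII genes without a peak, TfIIEalpha, TfIIEbeta, TfIIFalpha, TfIIFbeta, TfIIS and TfIIA-S-2, had signals of 27.5 to 51.9.

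MED10, MED11, MED21, MED26 and Taf3 had no candidate region within 1 kb in the joint ranked list, 5 of 62 (8.06%), against 1416 of 13945 genes (10.2%). In the list of replicate 2, MED10 had a region of 16.8 and MED11 one of 23.4. MED26 and Taf3 lie on chromosome 4, where 77 of 80 genes had no region in the joint list, 79 had none in replicate 1 and 62 had none in replicate 2. None of the 6 members on the X had a listed peak (interval 0 to 45.9%), beside 12.2% of all genes there, which lies inside the interval. Beyond the 1 kb window, Taf12 had a listed peak of 175.6 at 1454 bp, but its summit was 120 bp from the start of CG18476. TfIIEalpha had peaks of 112.4 at 1580 bp and 80.8 at 1916 bp, each closer to another gene, CG32085 and Sugb.

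Exact words were looked for on both strands within 100 bp of the summits, in the 16 member peaks and in all 1607 promoter peaks. TAATTA, a homeodomain word, was found at 3 of 16 members (18.8%), MED17, MED27 and TfIIA-L, beside 13.5% of promoter peaks. GTCACGC, a core of paired-domain sites, was found at 0 of 16 (upper bound 20.6%), beside 1.12%, although the unlisted TfIIA-S region holds it. TATCGATA, the core of the DNA replication-related element of housekeeping promoters, was found at MED17 only (6.25%), beside 4.36%, and GGTCACAC, the start of the M1BP site, at 0 of 16, beside 2.3%. The last word shares the letters GTCAC with the paired-domain word.

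TATAAA, the TATA-box word, was counted at any distance from a start site. It was found at 5 members (31.2%), MED17, MED27, MED31, Polr2H and Taf5, beside 32.7%. ACAGTG was found at MED16, Polr2F and TfIIA-L (18.8%), beside 19.4%. The E-box CANNTG was found at 8 members (50%), beside 62%, and GAGAG, the repeat bound by GAGA factor, at MED30 and MED4 (12.5%), beside 25.1%. For each of the 8 words the share over all promoter peaks lay inside the interval of the members.

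Related machinery outside the 62 genes was looked up in 6 lists. Of their 70 genes, 12 had a peak in the combined list (17.1%), beside the 13.8% of all genes. It was 9 in replicate 1 (12.9%, beside 9.89%) and 10 in replicate 2 (14.3%, beside 9.46%). With each combined-list peak given only to its nearest start site, it was 2 (2.86%, beside 10.1%). Most of the peaks named here and below thus lay nearer the start site of another gene. The lists are short, and no intervals are given for them. The Mediator kinase module had 1 of 4 (25%), skd, with a signal of 127.2, while kto, Cdk8 and CycC had candidate regions of 57.6, 52.1 and 45.3. The list of TATA-binding-protein relatives and testis TAFs had 1 of 7 (14.3%), Trf2, with 328.1 at 745 bp, and Tbp itself had a candidate region of 36.2.

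TFIIH, which melts the promoter, had 2 of 10 (20%, beside 13.8% of all genes): Ssl1, with 846.4, and mrn, with 118.2. The peak near Ssl1, with its summit 176 bp from the start site, was thus above that of every member, with 453.5 in replicate 1 and 396.3 in replicate 2. The nearest gene to each of these peaks is not given here. Pausing and elongation factors had 3 of 17 (17.6%): TH1 with 248.3 and Nelf-E with 212.9, which are subunits of the pausing factor NELF, and dre4 with 89.3. SAGA, a coactivator that acetylates histones, had 4 of 15 (26.7%): Gcn5 with 273.5, wda with 166.5, Ada2b with 120.6 and Sgf29 with 73.6. RNA polymerases I and III had 1 of 17 (5.88%), Polr3E with 210.7. With so few genes per list, no list is read as higher or lower than all genes.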

How the data were processed

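The labels describe 2 biological replicates of 1 group. Per the labels, the files are on assembly dm6. Per the files' own descriptions the lists are IDR-ranked and IDR-thresholded regions in the narrowPeak layout. Neither aligner nor peak caller is named in these sources. The deposited files give for each region a signal, a score capped at 1000 by the authors' pipeline and a −log10 of the IDR. Replicate signals were read from each replicate's own ranked list, in the candidate region that holds the summit. Depth is unknown from these files.

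Start sites came from Ensembl release 115 and sequence from RefSeq (Release 6). All 62 members have a RefSeq entry whose coordinates match. A gene counted as having a peak when a summit of the combined list, the longer joint list, lay within 1 kb of any of its start sites. Shares carry exact 95% binomial intervals. No test was made on the members. The members and lists were chosen with earlier results of these data known. Every member with a peak is named, with the 5 strongest without a peak and those with no candidate region. Every gene of the other lists with a peak is named too. The values given for Polr2A, MED14, Polr2E, Polr2K, Polr2L, Polr2M, Taf10, Taf10b, kto, Cdk8, CycC, Tbp and the TFII genes without a peak, and the peaks beyond 1 kb, fall outside this rule and were chosen after their values were seen. Alternatives were other lists, windows, thresholds and ways to assign peaks. The lookup was tested on simulated peaks. Python 3.11.15, pandas 2.3.3, NumPy 2.4.6 and SciPy 1.17.1 were used.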

Additional observations from a re-analysis of the deposited data

How the results depend on the processing

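The count of 16 members with a peak moved with the strictness of the list. It was 7 of 62 (11.3%, beside 7.21% of all genes) at a global IDR of at most 0.001, 8 (12.9%, beside 8.63%) with only peaks at or above the list's median signal, and 9 (14.5%, beside 10.1%) when each peak was given only to its nearest start site. From a single replicate's own list it was 13 in replicate 1 (21%, beside 9.89%) and 8 in replicate 2 (12.9%, beside 9.46%). Without replicate 1, the peaks of MED6, MED7, MED16, MED31, Polr2F, Polr2H, Taf4 and TfIIB were lost, and without replicate 2 those of MED7, Taf4 and TfIIB. The conservative list, windows of 200 bp, 500 bp and 2 kb, overlap in place of the summit and protein-coding transcripts gave 13 to 18, while the share of all genes ran from 7.63% (200 bp) to 18.1% (2 kb). So did 2 alternatives chosen after seeing the data, restoring the unlisted regions (18) and dropping signals under 30 (16). The count within 200 bp, 15 of 62 (beside 7.63% of all genes), was 5 of 62 within 100 bp (beside 3.85%). In single replicates the count within 200 bp was 13 in replicate 1 (beside 5.69%) and 8 in replicate 2 (beside 5.21%). The 12 other machinery genes (17.1%, beside 13.8% of all genes) became 7 at the stricter IDR (10%, beside 7.21%) and 7 within 200 bp (10%, beside 7.63%). They became 2 by nearest start site (2.86%, beside 10.1%), which puts them below all genes. In single replicates they were 9 in replicate 1 (12.9%, beside 9.89%) and 10 in replicate 2 (14.3%, beside 9.46%). With 50 bp to each side of the summit, TATCGATA was found at 0 of the 16 peaks (beside 2.36% of promoter peaks) and GAGAG at 0 (beside 10.8%). CANNTG was at 18.8% with 50 bp (beside 37%) and at 81.2% with 150 bp (beside 77.7%). With 150 bp, TAATTA was at 31.2% (beside 19%), GGTCACAC at 12.5% (beside 4.73%) and GAGAG at 25% (beside 39.3%).

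No paired analysis was possible because the labels give 1 group only. The lists give no read counts, no control was analysed here, and 16 peaks leave wide intervals. Absence from a list does not show absence of binding, and MED15 and TfIIA-S are unlisted although past the threshold.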
